A study of Mus musculus with 10 samples.

Results

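Gene levels were described in the lumbar spinal cord of 5 wild type (WT) female mice, the 5 libraries whose genotype label was wild type out of 10 libraries in the series. The mice were non-transgenic, of the FVB strain (FVB/N in the study's methods), and 95 days old. The other 5 libraries came from mice of the same strain, sex, tissue and age that overexpress mutant SOD1 (SOD1 G86R), and were not used here. All mice were perfused with cold PBS under ketamine and xylazine before the cord was dissected and frozen, and total RNA was extracted with Trizol, with 1 library per mouse. The WT mice were matched to the SOD1 G86R mice by age and litter, and which WT mice were litter mates of each other is not given in the sources used here, so that every spread below is the spread between these 5 mice. The tissue was taken whole, and gray matter, white matter and attached roots were not separated.

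The lumbar cord holds the motor neurons and interneurons that drive the hind limbs, and the dorsal horn that receives sensory input from them. Its outer part is white matter, in which oligodendrocytes wrap axons in myelin, while astrocytes, microglia and vessels lie throughout. Glycine and GABA are the fast inhibitory transmitters of the cord, glutamate is the fast excitatory transmitter, and motor neurons release acetylcholine.

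The library totals were 29333590, 32023675, 32602484, 32026898 and 46003999 counts in WT replicates 1 to 5, so that replicate 5 was sequenced most deeply. Levels are given as CPM (counts scaled to a common library total), which compare mice within a gene. They are also given as TPM, in which counts are first divided by the length of the gene's merged exons, which compare genes with each other. Of 32506 genes in the table, 14760 (45.4%) were detected, defined as a mean of at least 1 CPM over the 5 mice. Protein-coding genes held 97.7 to 98.1% of the counts of a library. No library was a copy of another: for every pair of libraries, the chi-square of their counts over genes was at least 10.4 times its degrees of freedom. Xist, the RNA of the inactive X chromosome, was at 365 to 656 CPM in the 5 mice.

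Myelin transcripts and mitochondrial transcripts led the tissue. The 10 genes with the most counts held 8.79 to 9.83% of a library, and 957 to 1013 genes held 50% of it. Mbp, which encodes myelin basic protein (chromosome 18, 82475146 to 82585637, GRCm38), had the most counts of all genes, with 21326, 21198, 19744, 19907 and 18742 CPM in replicates 1 to 5. Replicate 5 was lowest, and the 5 values lay within a coefficient of variation (CV, the SD as a percent of the mean) of 5.36%. On the TPM scale, which corrects for length, Mbp reached 8419 ± 546 TPM (SD, n = 5). With the length of the longest transcript (4797 bases) in place of the merged exons (8469 bases) it was at 11717.5 TPM. Other abundant nuclear genes on the TPM scale were Fth1, the heavy chain of the iron store ferritin, at 5632 ± 289 TPM, the hemoglobin gene Hbb-bs at 5231 ± 2060 TPM, and Sparcl1, a secreted matrix protein of astrocytes, at 4512 ± 254 TPM (SD, n = 5 each). S100b, a calcium-binding protein of glia, was at 2985 TPM, the protease inhibitor Cst3 at 2891 TPM, the light neurofilament Nefl at 2517 TPM, the lipid desaturase Scd2 at 2495 TPM and the ribosomal protein Rplp1 at 2388 TPM. Below Rplp1 came Cplx1, a regulator of vesicle fusion, at 2306 TPM and the lipid carrier Apoe at 2254 TPM. Gm42418, a locus that overlaps ribosomal RNA sequence, was at 2651 TPM and is taken up with the genes that varied.

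Of the 20 genes highest in TPM, 9 were encoded in the mitochondrial genome. The 13 mitochondrial mRNAs of the list, which encode subunits of the respiratory chain, held 4.64, 4.72, 4.77, 4.63 and 5.84% of the counts in replicates 1 to 5, so that replicate 5 stood above the others. mt-Nd1, a subunit of complex I, was at 35259 ± 3543 TPM, mt-Cytb at 34510 ± 2795 TPM and mt-Co1 at 29307 ± 2593 TPM (SD, n = 5). Members of the same genome that encode subunits of the same complexes were listed far lower: mt-Co3 at 6.34 TPM, mt-Co2 at 3.62 TPM, mt-Atp6 at 14.4 TPM and mt-Nd3 at 27.5 TPM. mt-Atp8, which overlaps mt-Atp6, was at 15017 TPM. Levels of these mitochondrial genes are therefore uncertain as measures of their RNA, since reads that fit several places or overlapping genes can be dropped or moved by counting, and the share of such reads was not tested.

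The cell types of the cord were described by the summed counts of marker lists, given as percent of a library. These are shares of counts and not of cells, and in bulk tissue fewer cells of a type and less RNA per cell cannot be told apart. The 15 genes of oligodendrocytes and myelin took 4.24 ± 0.193% of the counts, the 14 genes of neurons in general 1.38 ± 0.0301%, and the 14 genes of astrocytes 0.979 ± 0.0587% (SD, n = 5). All members of these 3 lists were detected. Of all 119 markers of neurons and glia in 9 lists, 110 were detected, or 92.4%, against 45.4% of all genes in the table. The table also holds pseudogenes and small RNAs, and of its protein-coding genes 13753 of 18950 were detected. In the plot of marker lists, the lists of neurons and glia lay close together for the 5 mice, whereas those of red blood cells, granulocytes and skeletal muscle were spread wide.

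**Figure D1:**
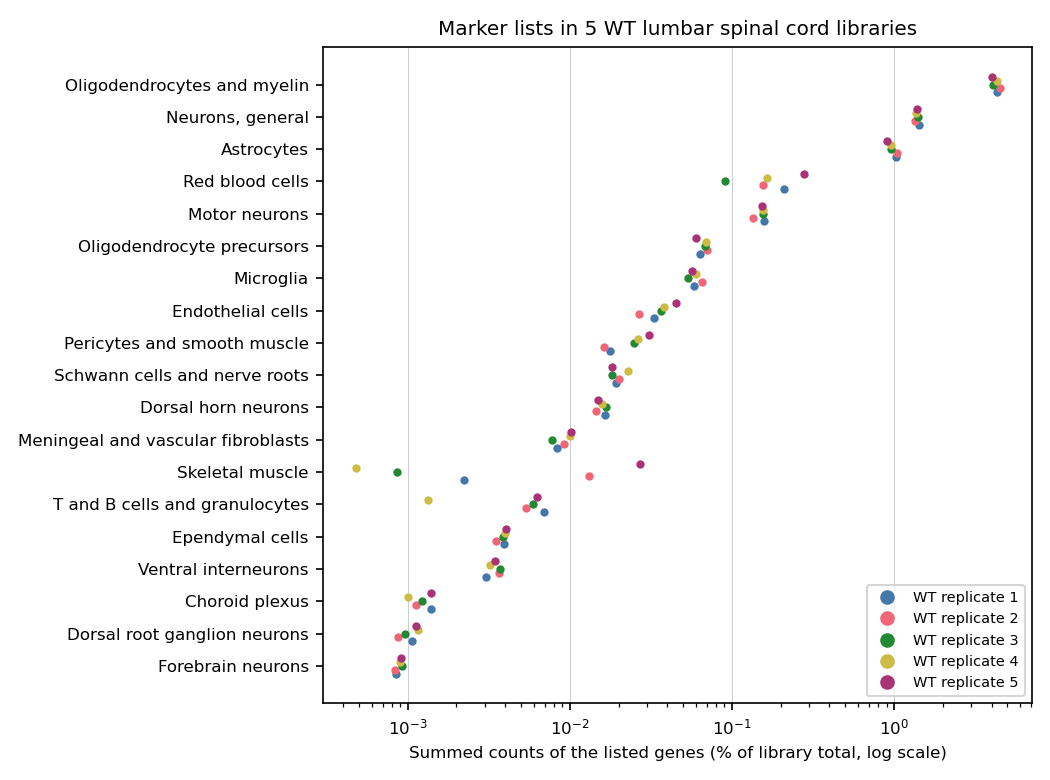
Each point is the summed count of a marker list in a WT mouse, as percent of that library's total, on a log axis, with colors for the 5 replicates. The oligodendrocyte list lay at 4.04 to 4.49% in all mice, while the skeletal muscle list ran from 0.000478% to 0.0271%.

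Other abundant oligodendrocyte genes were Mobp (1663 TPM), Cnp, an enzyme of myelin cytoplasm (1347 TPM), the myelin lipid-raft protein Mal (1043 TPM) and Cldn11, the claudin of myelin tight junctions (907 TPM). Opalin, a late myelin protein, was the lowest of the list at 52.7 TPM. The list was highest in replicate 2 (44917 CPM) and lowest in replicate 5 (40367 CPM), and 10 of its 15 genes had their highest CPM in replicate 2. Genes of oligodendrocyte precursors summed to 600 to 702 CPM. The lineage factors Olig1 (381 TPM) and Olig2 (84.9 TPM), which mature oligodendrocytes also express, led that list, and Pdgfra, the receptor that defines precursors, was at 16.9 ± 0.623 TPM (SD, n = 5). Gpr17, a receptor of cells about to form myelin, varied more, at 45.4, 31.4, 29.7, 56.0 and 25.2 TPM in replicates 1 to 5. Replicates 4 and 1 were highest, and the gene did not pass the test of variation described below.

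Astrocyte genes were led by S100b, the intermediate filament Gfap and the glycolytic enzyme Aldoc. Gfap (chromosome 11, 102887336 to 102900912, GRCm38) had 3075, 2932, 2333, 2513 and 2237 CPM in replicates 1 to 5. Replicates 1 and 2 were above the others, and its CV of 14.1% was above that of Snap25 (4.15%) and Mbp. Slc1a2, the main glutamate transporter of astrocytes, was at 588 ± 39.3 TPM, and its relative Slc1a3 at 57.1 ± 5.78 TPM (SD, n = 5). Aqp4, the water channel of astrocyte end feet, was at 351 ± 29.6 TPM (SD, n = 5). Microglial genes summed to 533 to 652 CPM, with the complement genes C1qa at 165 TPM and C1qb at 91.2 TPM, and the receptors P2ry12 at 45.2 TPM and Cx3cr1 at 43.5 TPM. Replicate 2 had the highest CPM for 11 of the 14 microglial genes and replicate 3 the lowest for 9.

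Neuronal genes varied least among the cell type lists, with a CV of 2.18% for their sum. Nefl led at 2517 TPM, followed by Snap25, the membrane protein of synaptic vesicle fusion, at 1618 ± 45.0 TPM (SD, n = 5). Snap25 (chromosome 2, 136713453 to 136782428, GRCm38) had 2930, 3184, 3040, 3161 and 3256 CPM in replicates 1 to 5, with replicate 1 lowest. The exception in the list was Snhg11, a long noncoding RNA of neurons, which had 1362 CPM in replicate 1 and 525 to 849 CPM in the others. The heavy neurofilament Nefh, abundant in large projection axons, was at 1039 TPM, and the ratio of Nefl to Nefh was 2.43 ± 0.143 (SD, n = 5).

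The 14 markers of motor neurons were all detected, and apart from Nefh, which is on that list too, they were at 1.67 to 115 TPM. Chat, the enzyme that makes acetylcholine (chromosome 14, 32408203 to 32465989, GRCm38), had 29.3, 23.0, 26.7, 26.6 and 27.7 CPM in replicates 1 to 5, with replicate 2 lowest, and ranked 7058 by TPM. Slc18a3, the vesicular transporter of acetylcholine, lies within the Chat gene and was at 63.7 ± 7.08 TPM against 20.1 ± 1.98 TPM for Chat (SD, n = 5). The ratio of Slc18a3 to Chat was 3.11 to 3.25 in the 5 mice and 1.93 on the longest transcripts, and reads in the overlap of both genes may have been dropped. Slc5a7, which takes up choline, was at 52.8 TPM, the peripheral neurofilament Prph at 115 TPM, and Chodl and Mmp9, markers of fast motor neurons, at 23.1 and 9.15 TPM. The developmental factors were low, with Mnx1 at 3.80 TPM, Isl2 at 3.22 TPM and Isl1 at 1.67 TPM. The summed list was 1578, 1359, 1553, 1562 and 1528 CPM in replicates 1 to 5, and replicate 2, which was apart from the others, had the lowest CPM for 10 of the 14 genes. Nefh, which other neurons with large axons also express, made up 75.2 to 78.9% of that sum. Without Nefh the sums were 351, 287, 352, 343 and 379 CPM, with replicate 2 still lowest. In that mouse the oligodendrocyte list was the highest of the 5, and the part of the tissue composition in the motor neuron values was not tested.

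Transcription factors of interneurons were low. Of the 13 factors of dorsal horn neurons 12 were detected, led by Lbx1 (17.6 TPM), Pax2 (13.2 TPM), a factor of inhibitory neurons, and Lmx1b (12.4 TPM), a factor of excitatory neurons. Of the 13 factors of ventral interneurons 8 were detected, among them Shox2 (4.70 TPM), a factor of excitatory neurons. Foxj1, a factor of ciliated ependymal cells of the central canal, was at 31.8 TPM.

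Vascular markers differed between mice in step. The endothelial list summed to 329, 267, 364, 380 and 455 CPM in replicates 1 to 5, and the list of pericytes and smooth muscle to 177, 162, 247, 263 and 309 CPM. Replicate 5 was highest and replicate 2 lowest in both. Of the 11 endothelial genes, 10 were highest in replicate 5, among them Itm2a (177 TPM in replicate 5 and 102 to 139 TPM in the others) and the drug and hormone transporter Slco1a4 (37.1 TPM against 19.9 to 31.0 TPM). Rgs5, a regulator of signaling in pericytes, was at 94.1, 79.2, 124, 135 and 167 CPM. No endothelial or pericyte gene passed the test of variation by edgeR or limma, although 7 of 11 endothelial and 7 of 9 tested pericyte genes had an unadjusted p under 0.05 in edgeR, against 749 of 16046 genes overall.

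Markers of tissues around the cord were used to check the dissection. The 10 markers of sensory neurons of dorsal root ganglia summed to 8.71 to 11.6 CPM. Of these, 3 were detected: the sodium channel Scn9a (4.51 CPM), the ATP-gated channel P2rx3 (2.48 CPM) and the factor Isl1 (1.87 CPM), which motor neurons also express. The sodium channels Scn10a and Scn11a, which are largely restricted to nociceptors, were at 0.0255 and 0.0473 CPM on average. The 10 genes of Schwann cells and nerve roots, of which 6 were detected, summed to 192, 202, 183, 230 and 183 CPM in replicates 1 to 5. Pmp22 led that list. Of its 10 genes, 5 were highest in replicate 4, 3 in replicate 1 and 2 in replicate 2. Among them Prx, a peripheral myelin protein, was at 0.580, 0.625, 0.307, 4 and 0.804 CPM in replicates 1 to 5, highest in replicate 4. The part of nerve root in these libraries was not tested. Markers of choroid plexus summed to 10.1 to 14 CPM, with its defining transcript Ttr at 0.0249 CPM, and markers of forebrain neurons to 8.37 to 9.23 CPM.

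Hox genes, which give cord segments their identity along the body axis, were most abundant in groups 8 and 9. The 7 genes of these groups summed to 476, 478, 502, 479 and 484 CPM in replicates 1 to 5, the 12 genes of groups 4 to 7 to 274 to 308 CPM, and the 6 genes of groups 10 and 11 to 26.3, 41.4, 41.4, 42.5 and 36.4 CPM. The first 2 sums had CVs of 2.16 and 4.23% and the last a CV of 17.9%, with replicate 1 lowest for all 6 of its genes, ties at 0 included. Hoxb8 led at 234 ± 14.7 TPM, followed by Hoxc8 at 134 ± 9.63 TPM and Hoxb9 at 115 ± 8.23 TPM (SD, n = 5). In group 10, Hoxc10 had 35.2, 48.5, 47.0, 50.3 and 40.6 TPM in replicates 1 to 5, Hoxa10 11.8 ± 2.87 TPM and Hoxd10 4.93 ± 2.03 TPM (SD, n = 5). These genes mark lumbar levels, and the ratio of Hoxb8 to Hoxc10 was 5.37 ± 0.893 (SD, n = 5). The 3 genes of group 11 were at or below 0.123 TPM, and of groups 12 and 13, which mark more caudal levels, Hoxa13, Hoxc12 and Hoxc13 had 0 counts, which allows up to 0.102 CPM in the least deep library (3 counts, a limit for counting error only). The plot of Hox genes by group shows the fall between groups 10 and 11.

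**Figure D2:**
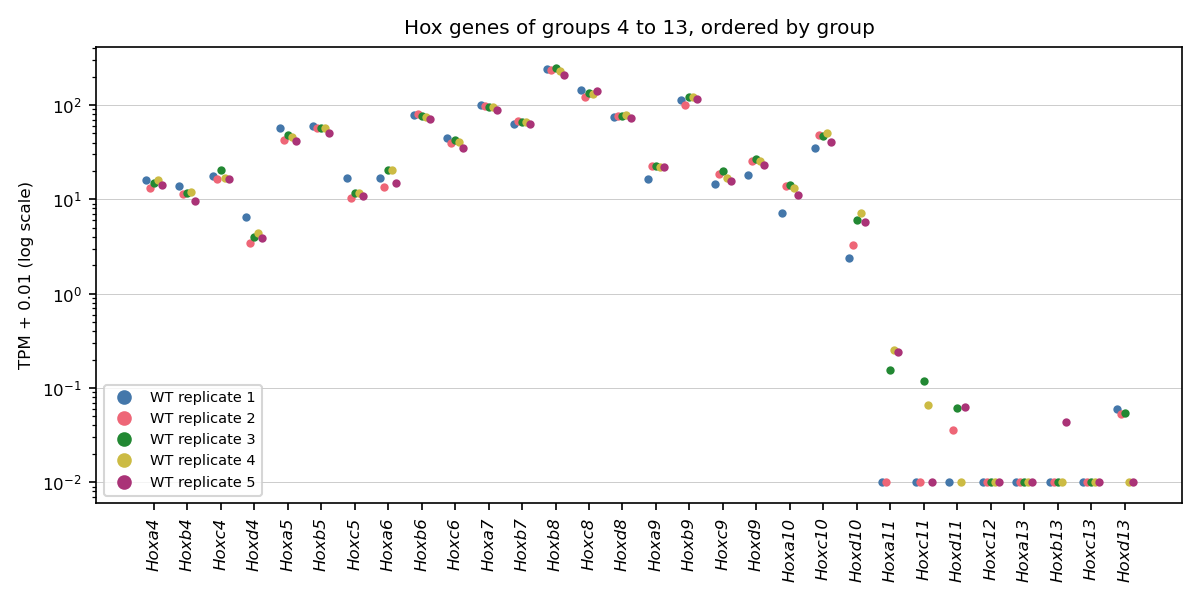
Each point is the TPM of a Hox gene in a WT mouse, plus 0.01 so that genes at 0 can be drawn, on a log axis, with genes ordered by paralog group and then by cluster. Hoxb8 was highest at 211 to 249 TPM, and no gene of groups 11 to 13 exceeded 0.245 TPM in any mouse.

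Of 336 genes for transmitter synthesis, transport and reception and for ion channels, 252 (75%) were detected, against 45.4% of all genes. Of protein-coding genes alone, 13753 of 18950 were detected, a share near that of these genes, so that detection does not set them apart. In 36 lists of these genes, the member highest in mean TPM was compared with the next within each mouse. The same member was on top in all 5 mice in 32 of the 36 lists, and the ranges of both members were apart in 31. An exact two-sided sign-flip permutation test of the log2 difference cannot give a p below 0.0625 with 5 mice. The 32 lists at that p had an adjusted p of 0.0703, so that no order passed a threshold of 0.05. Both members were also picked by their mean TPM in these same mice, which favors a steady order. The test therefore cannot bear out an order, and the orders are a description. The exceptions were Slc6a5 and Slc6a9, Scn1a and Scn8a, Cacna1a and Cacna1g, and Trpm2 and Trpm7, where the mean order held in 4, 4, 4 and 3 of 5 mice.

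Of the transporters that fill vesicles with glutamate, Slc17a6 was far above the others. It was at 132, 141, 150, 153 and 152 TPM in replicates 1 to 5, while Slc17a7, its counterpart in cortex, was at 1.71, 2.16, 2.88, 2.35 and 2.71 TPM. The values did not overlap, and the ratio was 52.2 to 77.4. Glul, which turns glutamate into glutamine in astrocytes, led the uptake and recycling genes at 1159 ± 109 TPM (SD, n = 5). Among AMPA receptor subunits Gria4 was highest at 105 ± 6.22 TPM and Gria2, the subunit that limits calcium entry, lowest at 38.1 ± 5.31 TPM (SD, n = 5), with no overlap of their ranges. The obligatory NMDA receptor subunit Grin1 was at 105 ± 10.8 TPM (SD, n = 5), and the others were at 6.03 to 18.9 TPM, with Grin3a on top and Grin2b lowest. Grik5 led the kainate receptors at 48.9 TPM, and Grm3, a receptor found on astrocytes, the metabotropic receptors at 39.3 TPM.

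The transporters of glycine transmission were at 215 to 231 TPM. Slc6a5, the transporter that defines glycinergic neurons (chromosome 7, 49910146 to 49963856, GRCm38), was at 223, 210, 244, 248 and 228 TPM in replicates 1 to 5, and Slc6a9, the glycine transporter of glia, at 222, 217, 220, 221 and 195 TPM. These ranges overlapped, and on the length of the longest transcript Slc6a9 was the higher of the 2. Slc32a1, which loads both glycine and GABA into vesicles, was at 215 ± 14.5 TPM (SD, n = 5). Of the receptor genes, Glrb, the subunit that binds the scaffold gephyrin, was at 244 ± 13.4 TPM, the adult subunit Glra1 at 127 ± 23.0 TPM, and the fetal subunit Glra2 at 11.6 ± 1.43 TPM (SD, n = 5). Glra1 had 101, 105, 146, 150 and 132 TPM in replicates 1 to 5, with replicates 1 and 2 below the others, and the ratio of Glra1 to Glra2 was 10.9 ± 1.83 (SD, n = 5).

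GABA was represented by Gad1 at 88.2 ± 4.96 TPM and Gad2 at 63.4 ± 3.39 TPM (SD, n = 5), the enzymes that make it, and the astrocyte transporter Slc6a11 at 381 ± 26.7 TPM (SD, n = 5). The ratio of Slc6a5 to Gad1 was 2.62 ± 0.212 (SD, n = 5) and 1.26 on the longest transcripts. Of 18 GABA-A receptor subunits 14 were detected. Gabra3 led at 142 ± 9.26 TPM, then Gabra2 at 90.2 ± 4.79 TPM (SD, n = 5), and Gabra5 was at 69.0 TPM. The cerebellar subunit Gabra6 had 0 counts in every mouse. Slc12a5, the neuronal transporter that keeps chloride low and so GABA and glycine inhibitory, was at 252 ± 21.3 TPM against 85.7 ± 5.54 TPM (SD, n = 5) for the importer Slc12a2.

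Most receptors of serotonin and noradrenaline were detected, whereas most enzymes and carriers of monoamines, whose neurons lie mainly in the brainstem, were below 1 CPM. Of 12 genes for monoamine synthesis and transport 3 were detected (Ddc, Th and Hdc), and the serotonin carrier Slc6a4 was at 0.197 TPM, the noradrenaline carrier Slc6a2 at 0.0465 TPM and the serotonin enzyme Tph2 at 0.618 TPM. Of 14 serotonin receptors 11 were detected, led by Htr2c at 42.5 ± 3.58 TPM and Htr7 at 30.1 ± 2.61 TPM (SD, n = 5). Adra2a led the adrenergic receptors at 24 TPM and Drd2 the dopamine receptors at 15.8 TPM. Chrna4 (32.9 TPM) and Chrnb2 (23.8 TPM), which form a common nicotinic receptor of neurons, led 16 nicotinic subunits, of which 5 were detected, and Chrm2 (36.7 TPM) led the muscarinic receptors. Ache, which breaks acetylcholine down, was at 149 ± 17.4 TPM (SD, n = 5), above all other genes of that pathway in each mouse.

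Among 30 neuropeptide genes, 20 were detected. Sst was at 419, 461, 437, 442 and 370 TPM and the opioid precursor Penk at 339, 338, 329, 345 and 309 TPM in replicates 1 to 5. Sst was above Penk in all 5 mice, and both were lowest in replicate 5. Npy (90.5 TPM), Tac2 (84.9 TPM), Cck (59.3 TPM), Calca (58.9 TPM) and Nts (52.8 TPM) followed, several of them peptides of dorsal horn neurons, and Tac1, the precursor of substance P, was at 27.0 TPM. The hypothalamic peptides Oxt and Avp were at 0.110 and 0.0389 TPM. Of the receptors, Oprl1, which binds nociceptin, was at 68.1 TPM, Tacr1, the receptor of substance P, at 8.76 TPM, and the opioid receptors Oprd1, Oprk1 and Oprm1 at 8.47, 4.94 and 2.80 TPM.

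**Figure D3:**
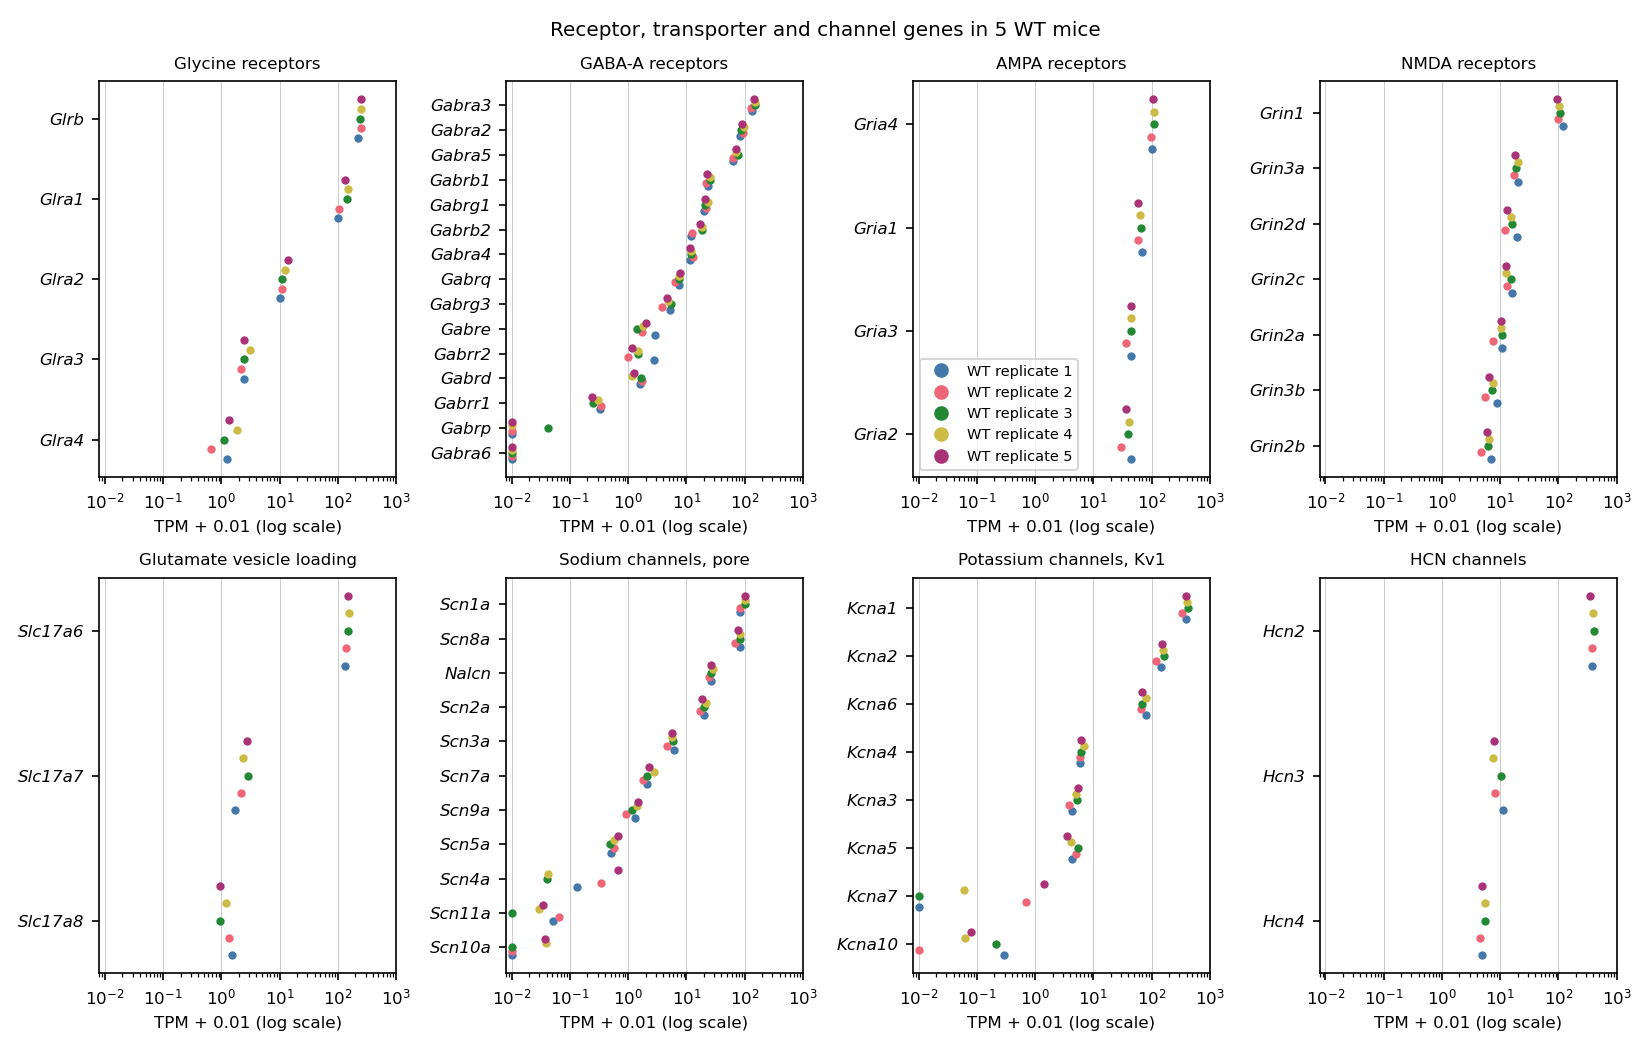
Each point is the TPM of a receptor, transporter or channel gene in a WT mouse, plus 0.01, on a log axis, with genes ordered by mean TPM in each panel. Slc17a6 (132 to 153 TPM) lay apart from Slc17a7, and Hcn2 apart from Hcn3 and Hcn4 in all mice.

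In several channel families 1 member lay far above the others. Hcn2, which carries a current that opens on hyperpolarization, was at 384 TPM, against 9 TPM for Hcn3 and 5.02 TPM for Hcn4. Kcna1 (388 TPM) and Kcna2 (147 TPM), which sit beside the nodes of Ranvier of myelinated axons, led the Kv1 family, and Kcna1 was 2.66 ± 0.110 times Kcna2 (SD, n = 5). Kcnj10, the inward rectifier of glia, was at 939 TPM, 12.2 ± 0.372 times its partner Kcnj16 (SD, n = 5). Kcnk1 (166 TPM), Kcnt1 (47.0 TPM) and Kcnh2 (89.7 TPM) led the other potassium channel lists.

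Scn1a and Scn8a, the sodium channels of axon initial segments and nodes, were at 94.5 and 79.4 TPM with overlapping ranges. Scn2a was at 19.6 TPM, and the ratio of Scn1a to Scn2a was 4.83 ± 0.447 (SD, n = 5). An auxiliary subunit was higher, with Scn4b at 374 TPM. Of the pore-forming calcium channels, Cacna1a (24.1 TPM), Cacna1g (22.7 TPM) and Cacna1b (21.1 TPM) were close to each other, and Cacnb4 led the auxiliary subunits at 59.1 TPM. The summed calcium channel pore genes varied more than other channel lists, at 497, 335, 433, 412 and 386 CPM in replicates 1 to 5, with replicate 1 highest for 9 of the 10 genes and replicate 2 lowest for 8. Of the 8 genes tested, 5 had an unadjusted p under 0.05 and 0 an adjusted p under 0.05 by edgeR or limma. Of all 273 transmitter and channel genes that were tested, 20 (7.33%) had an unadjusted p under 0.05, against 749 of 16046 (4.67%) of all genes tested. Genes measured in the same mice can move together, so that these shares are a description. By edgeR or limma 0 of the 273 were called, against 0.156% and 0.193% of all genes. Those shares are so low that 0 calls do not set these genes apart. The detected ones had a median CV of 9.28%. Gap junctions of oligodendrocytes and astrocytes were represented by Gjb1 (253 TPM), Gja1 (143 TPM) and Gjb6 (139 TPM), and the order of Gjb1 and Gja1 turned around on the longest transcripts.

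The calmodulin genes Calm3 and Calm2, which encode the same protein, were at 2232 ± 61.7 TPM and 2106 ± 147 TPM (SD, n = 5). By counts they were further apart, with 1532 CPM for Calm3 and 876 CPM for Calm2. The alpha tubulins Tuba1a, Tuba1b and Tuba1c, which also encode nearly the same protein, were at 792, 280 and 43.1 TPM, and shared sequence makes the split between them uncertain. Tubb4a, the beta tubulin of oligodendrocytes and neurons, led the tubulins at 2136 TPM, 2.23 ± 0.186 times the neuronal Tubb3 (SD, n = 5).

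For most genes the 5 mice lay close together. The median CV of the 14760 detected genes was 7.62%, and 25% of the genes were below 5.14% and 5% above 24.4%. The median fell with level, from 13.5% for genes at 1 to 10 CPM to 6.62% at 10 to 100 CPM and 5.39% at 100 to 1000 CPM, and was 5.78% for the 71 genes over 1000 CPM. To find genes that varied more than others of like abundance, each gene's dispersion between mice was tested in edgeR (quasi-likelihood F test, p adjusted by Benjamini and Hochberg, threshold 0.05). Of 16046 genes tested 25 (0.156%) were called, and limma called 31 (0.193%), which included all 25. The plot of spread against level shows the called genes above the cloud, and Mbp, Gfap, Snap25, Chat and Slc6a5 within it, as 5 genes that mark oligodendrocytes, astrocytes, neurons, motor neurons and glycinergic neurons.

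**Figure D4:**
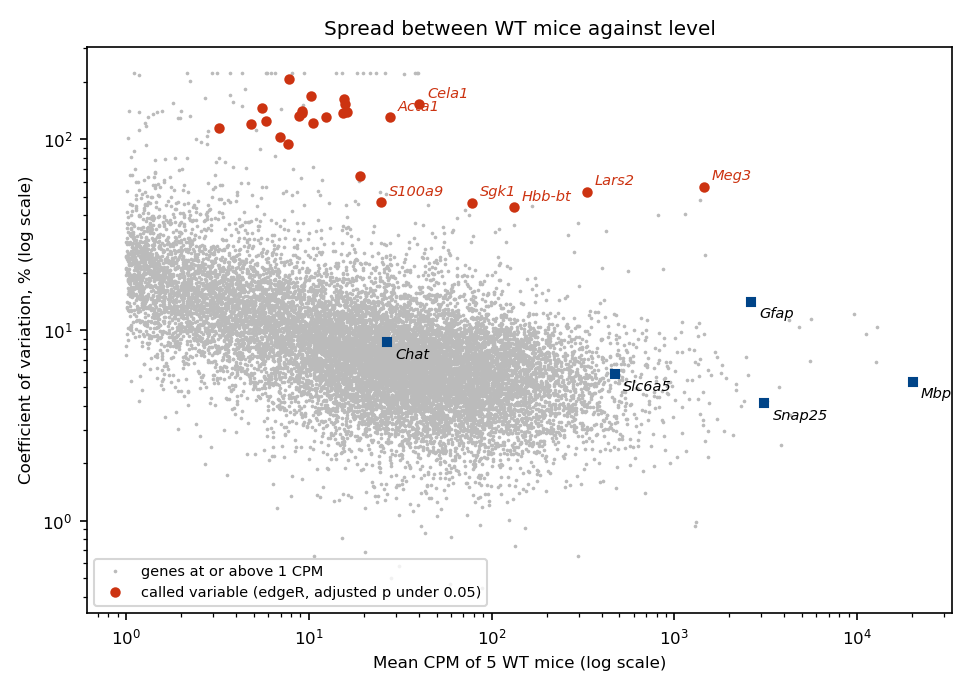
Each gray point is a gene detected at 1 CPM or more, with its mean CPM over the 5 WT mice against its CV in percent, both on log axes. Red circles are the 25 genes called variable and blue squares 5 marker genes, of which Gfap had the largest CV, 14.1%.

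Of the 25 genes, 14 belong to a list of 28 genes of muscle contraction and fibers that was written after the values were seen, 4 to a list of 25 enzymes of the exocrine pancreas written likewise, and 7 to neither. The muscle genes were highest in replicate 5 and next in replicate 2. Acta1, the actin of skeletal muscle fibers, had 6.41, 43.5, 2.33, 1.44 and 84.8 CPM in replicates 1 to 5 (edgeR adjusted p = 0.00213), Mb, the oxygen store myoglobin, 0.920, 17.1, 0.552, 0.343 and 59.1 CPM, and Atp2a1, the calcium pump of fast muscle, 2.62, 23.6, 1.56, 0.531 and 52.6 CPM. Replicates 5 and 2 were far above the others in each. All 28 muscle genes had their highest CPM in replicate 5, and their sum was 61.3, 296, 32.3, 23.3 and 682 CPM. As the list was written with these values seen, the shared order is no finding. H19, an imprinted noncoding RNA, was also highest in replicate 5 (19.5 CPM) and next in replicate 2 (6.12 CPM), with 0.429 to 0.886 CPM in the others.

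The pancreatic genes were high in replicate 3 alone of the 5 mice. Prss2, a trypsinogen, had 6437 counts there and 0, 0, 1 and 0 counts in replicates 1, 2, 4 and 5, and Ctrb1, a chymotrypsinogen, had 6406 counts there and 0, 0, 2 and 0 in the others. All 25 genes had their highest CPM in replicate 3, and the summed list was 1822 CPM in that mouse and 19.4 to 24.8 CPM in the others. As this list was also written with the values seen, the shared order is no finding. The sum in the other mice came mostly from Cela1, an elastase (10.8 to 14.9 CPM against 149 CPM in replicate 3), and Rnase1, a secreted ribonuclease (4.33 to 5.62 CPM against 59.5 CPM). Of the islet hormones, Ins2 had 0 counts in all mice and Gcg 1 count in replicate 3. The filter on low counts removes a gene that has few counts in any of the 5 mice, so that 4 of the 25 pancreatic and 19 of the 28 muscle genes were tested. Without that filter edgeR called 166 of 27594 genes (0.602%), among them 24 of the 25 pancreatic and all 28 muscle genes. Both lists were written with the values seen, so that these 2 counts are no finding either. Without replicate 3, the called genes numbered 11, 0 of them pancreatic. Without replicate 5 they numbered 12, with 6 muscle genes, and without replicate 1, 54, with 19 muscle genes. Whether these transcripts came with the tissue, during handling or in sequencing was not tested. The pancreatic list held 0.182% of the counts of replicate 3, and the muscle list 0.0682% of those of replicate 5. The neuronal list of replicate 3 (13996 CPM) and of replicate 5 (13777 CPM) lay within the range of the other mice, but shares this small could hardly have moved it.

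**Figure D5:**
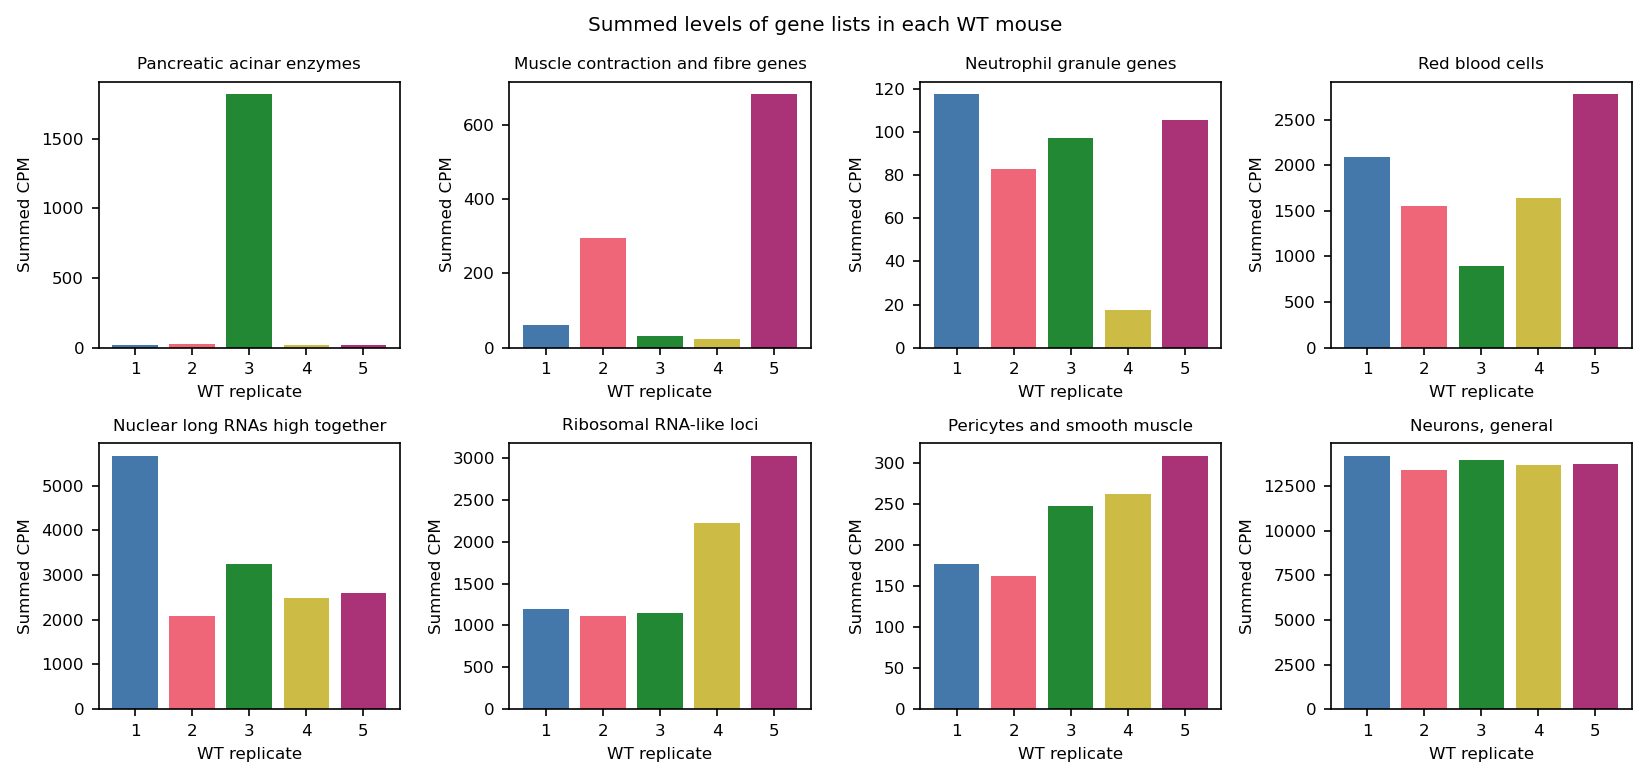
Bars give the summed CPM of a gene list in each WT mouse, from 0, with a panel per list. Pancreatic enzymes stood at 1822 CPM in replicate 3, muscle genes at 682 CPM in replicate 5 and 296 CPM in replicate 2, neutrophil genes were lowest in replicate 4 (17.5 CPM), and neurons differed little.

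Blood transcripts differed between mice in several ways. The red blood cell list was 2088, 1559, 901, 1643 and 2782 CPM in replicates 1 to 5, highest in replicate 5 and lowest in replicate 3, and Hbb-bt, a beta globin, was called variable (148, 112, 59.7, 122 and 219 CPM, edgeR adjusted p = 0.0435). Hbb-bs and Hbb-bt, and Hba-a1 and Hba-a2, are near-copies, and the split between them is uncertain. Neutrophil granule genes, on a list written after the values were seen, showed another order. They summed to 118, 82.8, 97.4, 17.5 and 106 CPM, and all 13 were lowest in replicate 4, which is no finding for a list written with the values seen. S100a9, a calcium-binding protein of neutrophils, was called variable with 34.2, 22.6, 30.8, 5.50 and 30.6 CPM (edgeR adjusted p = 0.0361), and Ngp, a granule protein, had 18.2, 12.9, 14.4, 2.75 and 15.8 CPM. Cd3e, a subunit of the T cell receptor complex, was low throughout (0.291 CPM on average).

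Several long noncoding RNAs were highest in replicate 1. Of a list of 9 nuclear and small noncoding RNAs, 5 were highest in replicate 1 (Malat1, Neat1, Meg3, Snhg11 and Miat), 3 in replicate 5 and 1 in replicate 4. Meg3, an imprinted noncoding RNA of neurons, had 2868, 863, 1420, 1028 and 1061 CPM in replicates 1 to 5 (edgeR adjusted p = 0.0446), and Malat1, which stays in the nucleus, 480, 193, 283, 267 and 263 CPM. Replicate 1 was highest and replicate 2 lowest in both. A second list, of 8 genes, was chosen because they were high together in replicate 1, so that this order is no finding. Of these, 7 were lowest in replicate 2. A last group held loci that overlap ribosomal RNA or repeat sequence. Lars2, a mitochondrial leucyl-tRNA synthetase whose locus is known to collect such reads, had 261, 195, 185, 415 and 600 CPM (edgeR adjusted p = 0.0328), and Gm42418 913, 905, 947, 1767 and 2366 CPM. Replicates 4 and 5 were above the others in both, and these counts are uncertain as levels of the named genes. The remaining called genes were ENSMUSG00000089855, which has no symbol here, and Sgk1, a kinase that glucocorticoids induce. Sgk1 was at 37.5, 58.6, 133, 69.9 and 90.2 CPM (edgeR adjusted p = 0.0447). Replicate 3 was highest and replicate 1 lowest. Other glucocorticoid targets were not called: Tsc22d3 had 170, 202, 228, 211 and 208 CPM, with the same mice highest and lowest, and Fkbp5 24.6 to 28.2 CPM.

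Lists of genes that respond to time of day, stress, activity or interferon, and of histones, were also summed. The 15 genes of the circadian clock, all detected, summed to 924 to 1008 CPM, and the 8 heat shock chaperones, all detected, to 2124 to 2257 CPM, led by Hsp90aa1 at 737 TPM. Of 13 immediate early genes, which neuronal activity induces, 11 were detected and their sum was 122 to 155 CPM. The interferon response list (10 of 11 detected) summed to 90.7 to 109 CPM, and the replication-dependent histones (3 of 7 detected) to 43.1 to 65.7 CPM. In these 5 lists 0 genes were called by edgeR or limma. Of all genes tested, 0.156% and 0.193% were called, shares so low that 0 calls do not set these lists apart. Of the tested genes, 3 of 15, 3 of 8, 3 of 12, 1 of 10 and 1 of 5, in the order of the lists above, had an unadjusted p under 0.05 in edgeR. That is 11 of 50, or 22%, against 4.67% of all genes tested. Genes measured in the same 5 mice can move together, so that the 50 are not separate cases and the shares are a description. A list of glucocorticoid and fasting response, which holds Sgk1, was not among these 5. Of its 13 tested genes, 1 was called by edgeR and by limma, and 4 had an unadjusted p under 0.05 in edgeR.

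For the muscle and pancreatic genes, 4 promoters are shown, chosen among those that hold a searched motif. Whether promoter motifs bear on the differences between mice was not tested. The windows are the 250 bases before the transcription start in RefSeq (GRCm38.p6), in the direction of the gene. Capitals mark TATAAA, the TATA box (searched on the gene's strand in the last 50 bases), CAGCTG, a form of the E-box that reads the same on both strands, and TTTCCCA, part of a motif of acinar genes (searched on both strands, so that it may read TGGGAAA). The letters of these motifs do not overlap in the 4 windows. Acta1 lies at chr8:123894776-123895025 (minus strand), Atp2a1 at chr7:126463074-126463323 (minus strand), Prss2 at chr6:41521526-41521775 (plus strand) and Ctrb1 at chr8:111691011-111691260 (minus strand).
Acta1: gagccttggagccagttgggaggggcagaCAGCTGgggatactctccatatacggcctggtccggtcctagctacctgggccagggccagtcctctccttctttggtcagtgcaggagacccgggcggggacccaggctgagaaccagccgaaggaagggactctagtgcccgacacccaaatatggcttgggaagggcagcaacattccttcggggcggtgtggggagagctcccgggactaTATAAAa
Atp2a1: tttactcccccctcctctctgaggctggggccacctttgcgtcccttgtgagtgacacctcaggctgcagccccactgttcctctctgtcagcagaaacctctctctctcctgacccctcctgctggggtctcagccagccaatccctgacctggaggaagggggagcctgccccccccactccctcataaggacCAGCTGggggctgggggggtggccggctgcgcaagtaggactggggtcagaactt
Prss2: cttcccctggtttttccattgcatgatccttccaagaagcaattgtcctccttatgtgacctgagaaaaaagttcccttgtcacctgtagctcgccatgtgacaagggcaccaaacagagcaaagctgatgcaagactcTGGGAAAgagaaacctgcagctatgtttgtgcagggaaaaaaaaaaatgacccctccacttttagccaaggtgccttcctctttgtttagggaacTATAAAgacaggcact
Ctrb1: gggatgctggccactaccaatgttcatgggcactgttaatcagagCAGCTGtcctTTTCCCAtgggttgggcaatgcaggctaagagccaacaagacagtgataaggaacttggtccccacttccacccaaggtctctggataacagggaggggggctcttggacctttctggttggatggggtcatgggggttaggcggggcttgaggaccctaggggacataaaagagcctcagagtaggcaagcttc
Acta1 held both TATAAA and CAGCTG, Atp2a1 CAGCTG alone, Prss2 TATAAA and TTTCCCA, and Ctrb1 CAGCTG and TTTCCCA.

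Of the 28 muscle genes 19 had a window, of which 10 (52.6%) held CAGCTG and 3 (15.8%) TATAAA. Of the 25 pancreatic genes 20 had a window, of which 8 (40%) held TATAAA, 6 (30%) TTTCCCA and 4 (20%) CAGCTG. Over the 11884 tested genes with a window the shares were 14.9% for CAGCTG, 1.84% for TATAAA and 7.99% for TTTCCCA, and over all 27025 genes with a window 14.7, 3.15 and 7.77%. These are matches of letters and were not tested as binding sites.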

How the data were processed

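RNA-sequencing was performed by the authors on total RNA of lumbar spinal cord. Reads were mapped onto the mm10 assembly using TopHat2 2.0.14 and quantified with HTSeq 0.6.1 and an Ensembl annotation. How reads were filtered, which kit was used and whether strand was counted is not stated in the methods or labels used here. The deposited table holds raw counts per gene, not normalized, of which the 5 WT columns were used (29333590 to 46003999 counts, so that 3 counts are 0.0652 to 0.102 CPM). Gene symbols, merged exon lengths and positions came from GENCODE M21 (GRCm38), which matched 32247 of 32506 gene IDs (the other 259 held at most 0.0665% of a library). Promoters came from RefSeq (GRCm38.p6). Without strand, reads of overlapping genes cannot be told apart.

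CPM were computed on the library total. TPM were computed on merged exon length. Ratios of family members used log2(TPM + 0.1). Variation between mice was tested on counts in edgeR 4.0.16 (R 4.3.3) with filterByExpr, TMM factors and an intercept only: each gene's quasi-likelihood dispersion was compared with the trend by an F test, with p adjusted by Benjamini and Hochberg. limma 3.58.1, DESeq2 1.42.0 size factors, no filter, a threshold of 0.01, the longest transcript as length, a pseudocount of 1 TPM and leaving out each mouse were alternatives. The scripts were checked on simulated data. Each library is a separate mouse, and p-values measure the spread between these mice.

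Named genes were 5 markers, the 20 highest by CPM and by TPM, up to 4 leading members and absent defining members of each list, the genes that varied most, and genes of near-identical proteins. Other genes were named after their values were seen, and 6 lists (pancreatic enzymes, islet hormones, muscle genes, neutrophil genes, nuclear RNAs and ribosomal RNA-like loci) were written after their values were seen. All members and lists were chosen with earlier results of these data known. Of the list entries, 5 were not matched and are not analysed here. Some genes are not reported here, although they count in the sums.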

Additional observations from a re-analysis of the deposited data

Results flagged for a closer look

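Of 92 summed lists and genes checked, 12 had a single mouse far from the other 4, measured by its gap to the nearest mouse as a share of the whole range. Chance gives about 1 such case in 20 groups, but the count cannot be read against that rate. The checked lists share mice and some genes, and 5 of the 12 (Mb, Cela1, Ctrl, Rnase1 and the pancreatic enzyme list) had been chosen because they varied between these mice. Replicate 2 was lowest for 4 neural lists: motor neurons (1359 CPM against 1528 to 1578 CPM in the others), ependymal cells (34.9 CPM against 39.0 to 40.6 CPM), AMPA receptors (518 CPM against 587 to 607 CPM) and auxiliary calcium channel subunits (461 CPM against 513 to 525 CPM). Of the 336 transmitter and channel genes, 125 had their lowest CPM in that mouse, and 84, 30, 37 and 60 in replicates 1, 3, 4 and 5. Ties, as at 0 counts, were given to the first of the tied replicates. How many of all genes were lowest in replicate 2 was not counted, so that the 125 do not set these genes apart.

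Replicate 5 was lowest for GABA synthesis and transport (1949.9 CPM against 2092 to 2129 CPM) and highest for mitochondrially encoded mRNAs (58386 CPM against 46327 to 47671 CPM) and for Mb (59.1 CPM against 0.343 to 17.1 CPM). Replicate 4 was lowest for the summed list of T and B cells and granulocytes (13.3 CPM against 53.8 to 69.1 CPM), of which 6 of 11 genes were detected. Most of that sum came from the neutrophil genes S100a9 (5.50 CPM against 22.6 to 34.2 CPM) and S100a8 (3.53 CPM against 15.4 to 21.1 CPM). The sum therefore says little about T and B cells. Replicate 3 was highest for the pancreatic enzymes as a sum (1822 CPM against 19.4 to 24.8 CPM). It was also highest for Cela1 (149 CPM against 10.8 to 14.9 CPM), Ctrl (36.4 CPM against 0.500 to 0.784 CPM) and Rnase1 (59.5 CPM against 4.33 to 5.62 CPM). The sources of these differences were not tested.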

How the results depend on the processing

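No paired analysis was possible because only the WT group is described, and the replicate numbers it shares with the other genotype pair no samples within it. The 25 genes called variable became 166 without the filter on low counts and 14 at a threshold of 0.01, and 11 to 54 when each mouse was left out in turn, with the lowest count without replicate 3 and the highest without replicate 1. The filter removes genes with few counts in any of the mice. For other changes in that count the cause was not tested. The level of Mbp was 21379.5 CPM in place of 20184 CPM on totals without mitochondrial genes. The oligodendrocyte share of 4.24% was 4.49% on those totals, 2.49% as a percent of TPM and 2.22% without its highest member, as each construction implies.

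On the longest transcript the log2 difference turned to -0.43 for Slc6a5 over Slc6a9, -0.11 for Slc6a11 over Abat and -0.47 for Gjb1 over Gja1, and for Trpm2 over Trpm7 it was -0.011 to 0.067 when each mouse was left out, turning only without replicate 1. The number of lists with 1 member on top in every mouse was 31 to 34 over the alternatives, and the number of detected genes 14193 to 19356. Of the other values, 760 moved by less than the spread between mice and 176 by more, most of them shares on another scale or without their highest member. Totals of 29333590 to 46003999 counts limit genes near 0.1 CPM to a few counts per mouse, and levels compared between genes depend on the length chosen.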
